A study of Arabidopsis thaliana with 8 samples.

Results

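The genes described here encode enzymes of the Calvin cycle and of photorespiration in Arabidopsis thaliana: Rubisco small subunits, Rubisco activase, the enzymes of the reduction and regeneration steps, the CP12 linker proteins and the enzymes of the photorespiratory pathway. They were chosen as 38 named loci, from their known roles, and matched to the rows of a table of raw read counts per gene model, a model being a locus with an isoform number. Of the 38 loci, 22 had a row and 16 had none, in a table of 17710 loci and 17921 models. RNA came from shoots of 7-day-old seedlings raised upright on agar plates under 16 h light and 8 h dark. The series holds 8 samples of 4 genotypes with different shapes of cotyledon cells, labelled cae2-1, CA1-1, the combination cae2-1 CA1-1, and Col, each with 2 biological replicates. Only the 2 Col libraries (the Columbia accession) carry column names that match their sample titles, so the values below are those of Col replicates 1 and 2. Contrasts of the other genotypes with Col were not analysed here. Nothing states whether the replicates came from separate plates or days.

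In the Calvin cycle, which runs in the chloroplast stroma, Rubisco joins CO2 to ribulose bisphosphate. The product is reduced to triose phosphate with ATP and NADPH, and most of the triose phosphate is used to regenerate the acceptor. Rubisco also reacts with oxygen, and photorespiration recovers the resulting phosphoglycolate through steps in the chloroplast, the peroxisome and the mitochondrion. Genes of both pathways are known to be expressed mainly in green tissue in the light.

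The listed models summed to 2571129 counts in replicate 1 and 2408685 counts in replicate 2. Levels are given as CPM, the count scaled to a common library size (the listed total times its trimmed-mean-of-M-values factor). Over 10701 models with a mean of at least 5 CPM, the levels of the libraries had a Spearman correlation of 0.853, which is across genes and not across independent replicates. A count of 1 appeared for no model in either library, although 690 models of replicate 1 and 715 of replicate 2 had a count of 2. A listed 0 was therefore taken to mean at most 1 count. By the Poisson distribution, at 95% and on 1 side, such a row is below 4.74 counts, which is 1.90 CPM for replicate 1 and 1.91 for replicate 2, counting error only. Of 9 root genes used to check the tissue, all were listed, 2 (EXPA7 and COBL9) were at 0 in both libraries, and only PYK10, a beta-glucosidase gene, exceeded 100 CPM. The root genes summed to 2260 CPM in replicate 1, of which PYK10 made 2219, and to 4183 CPM in replicate 2, of which PYK10 made 4157. The 3 listed of 5 epidermis genes summed to 3385 CPM in replicate 1 and 2673 in replicate 2. They did not move one way. PDF1 stood at 333 CPM in replicate 1 and 665 in replicate 2, LTP1 at 2004 and 1580, and FDH at 1047 and 427. Nor did the root genes, as CASP1 stood at 21.3 CPM in replicate 1 and 4.43 in replicate 2, against the direction of PYK10. Whether the differences in these markers and their sums have a part in the differences between the libraries described below was not tested. Because these are whole shoots, fewer green cells and less RNA per cell cannot be told apart.

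Members with a row were mostly abundant in Col shoots. Of the 22 listed members, 18 reached a mean of 5 CPM, 15 reached 100 CPM and 6 reached 1000 CPM. Of all 17921 models, 59.7% reached 5 CPM, 11.1% reached 100 CPM and 0.603% reached 1000 CPM. The 6 most abundant members by CPM were CP12-1, SHM1, TKL1, GAPB, GAPA and GDCH. All 22 listed members together came to 20059 CPM in replicate 1, and in replicate 2 to 21188 CPM. This was a share of 1.94% of all counts for replicate 1, with a 95% Wilson interval of 1.93 to 1.96, and of 2.19% for replicate 2, with an interval of 2.17 to 2.205. These intervals cover counting error only. The 16 listed Calvin cycle members, CP12 included, made 15285 CPM of the sum in replicate 1 and 14166 CPM in replicate 2, and the 6 listed photorespiration members 4774 and 7022 CPM. For scale, the 30 listed genes of a list of 42 antenna and photosystem genes summed to 121928 CPM in replicate 1 and 84930 in replicate 2. The 12 listed of 20 chlorophyll synthesis genes summed to 2380 CPM in replicate 1 and 2209.7 in replicate 2. These sums depend on which loci have a row, and no test compared the lists.

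**Figure D1:**
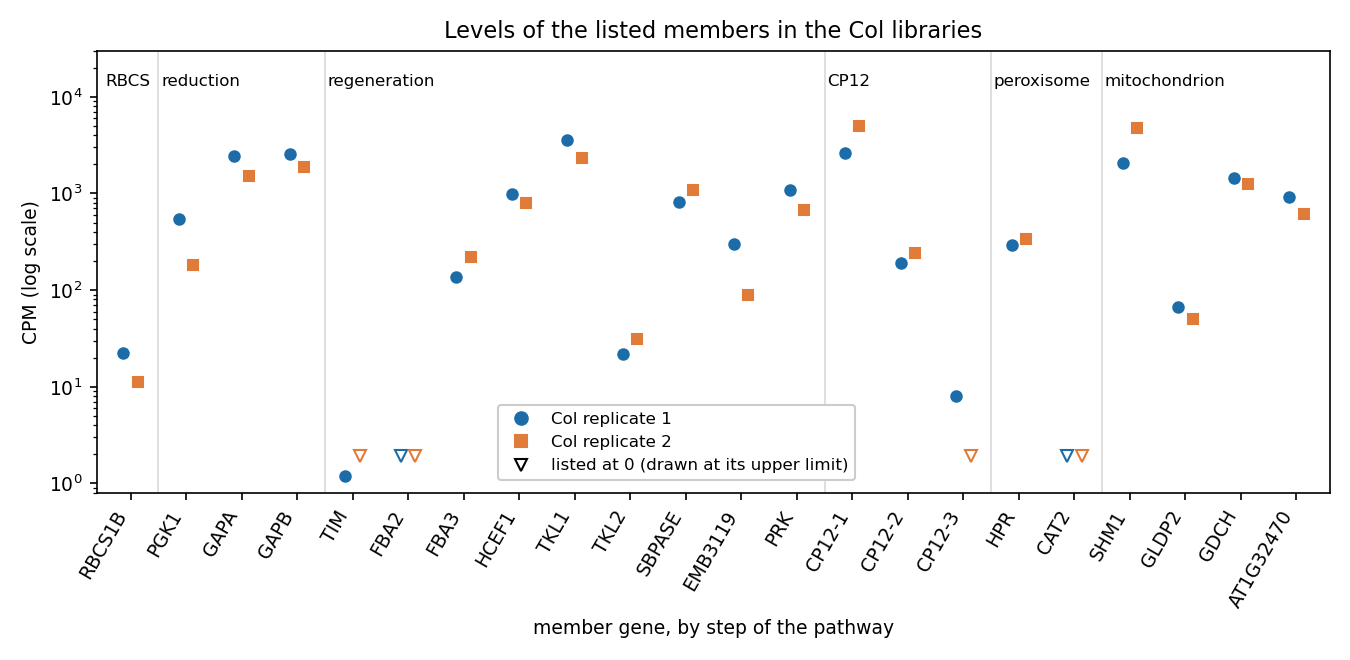
Level of each of the 22 listed members in CPM on a log axis, grouped by step of the pathway, with circles for Col replicate 1 and squares for Col replicate 2; open triangles mark a listed 0 and stand at its upper limit. CP12-1 and SHM1 stand highest in replicate 2, at 5053 and 4762 CPM, and FBA2 and CAT2 are at 0 in both libraries.

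Rubisco itself was represented by a single small subunit gene. The small subunit is encoded in the nucleus by a small family, and of the 4 genes in the member list RBCS1B (AT5G38430) had a row while RBCS1A, RBCS2B and RBCS3B did not. RBCS1B had 56 counts for replicate 1 and 28 for replicate 2, or 22.5 and 11.3 CPM. Its mean was 16.9 ± 7.93 CPM (SD, n = 2), and per kb of transcript RBCS1B and TKL2 overlapped as the lowest of the 18 members at 5 CPM or more. The family members are close copies, and a stretch of each is shown because it shows how few bases separate them. The lines give the first 90 coding bases of the second coding exon, 5′ to 3′ on the coding strand, with capitals at the bases that differ from RBCS1B. They were read from the RefSeq assembly TAIR10.1 (the submitters name TAIR10), at chr5:15384806-15384895, chr5:15381628-15381717, chr5:15377956-15378045 and chr1:25048883-25048972, all on the minus strand.
RBCS1B: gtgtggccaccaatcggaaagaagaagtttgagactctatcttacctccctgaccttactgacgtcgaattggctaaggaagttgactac
RBCS2B: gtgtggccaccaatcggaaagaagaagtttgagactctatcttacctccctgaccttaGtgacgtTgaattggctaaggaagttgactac
RBCS3B: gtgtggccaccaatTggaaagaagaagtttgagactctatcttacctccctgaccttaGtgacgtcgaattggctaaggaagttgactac
RBCS1A: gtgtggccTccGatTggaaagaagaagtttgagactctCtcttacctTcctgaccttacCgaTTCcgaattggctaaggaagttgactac
Within these 90 bases RBCS2B and RBCS3B each differed from RBCS1B at 2 positions and RBCS1A at 9. Over the whole coding sequence RBCS2B was 97.3% identical to RBCS1B, RBCS3B 96.7% and RBCS1A 90.4%. Of the 1845 windows of 50 bases in the RBCS1B transcript, 258 (14.0%) also occurred in a transcript of another locus, most often RBCS3B. How reads shared by such copies were counted is not given in the sources used here, so the count of RBCS1B is uncertain and no level of Rubisco small subunit transcripts as a whole can be read from it. Of the other 21 listed members, 20 shared no window of 50 bases with another locus, and GLDP2 shared 5 of 3918. Rubisco activase (RCA), which removes inhibitory sugar phosphates from the enzyme, had no row.

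Genes chosen for the assembly or upkeep of Rubisco were mostly listed and expressed. Of these 10 genes, 7 were listed and all 7 reached 5 CPM, 5 of them 100 CPM. By mean CPM the first 3 were CPN60A, AT3G47650 and AT3G04550. CPN60A, a chaperonin gene, stood at 369 CPM in replicate 1 and 669.9 in replicate 2. AT3G47650 stood at 389 CPM in replicate 1 and at 218 in replicate 2, and AT3G04550, annotated as a Rubisco accumulation factor, at 203 and 344 CPM. By the exact binomial test described below, 6 of the 7 differed between the libraries beyond counting noise, 3 higher in each, beside 54.5% of all models tested and 80.1% of those at 100 CPM or more.

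The reduction phase was strongly represented by both subunits of the chloroplast glyceraldehyde 3-phosphate dehydrogenase. GAPA (AT3G26650) had 6051 counts for replicate 1 and 3813 for replicate 2, or 2428 and 1534 CPM. GAPB (AT1G42970), whose product joins that of GAPA in the same enzyme and carries its regulatory extension, had 6340 and 4728 counts, or 2544 and 1902 CPM. Per kb of transcript, the ratio of GAPA to GAPB within a library was 1.01 in replicate 1 and 0.853 in replicate 2, so the subunit genes stood at nearly the same level in each. GAPA2, the second gene for the A subunit, had no row, and its coding sequence is 85.8% identical to that of GAPA. PGK1 (AT3G12780), a chloroplast phosphoglycerate kinase that makes the substrate of this enzyme, was lower, per kb 0.218 times GAPA in replicate 1 and 0.113 times in replicate 2. It had 1371 counts in replicate 1 and 448 in replicate 2. Its levels of 550.2 and 180.2 CPM differed 3.05-fold, the second widest ratio among members at 5 CPM or more. Its close copy AT1G56190 (87.2% identical in the coding sequence) had 3 counts in replicate 1 and was at 0 in replicate 2 for the more abundant of its 2 listed models.

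Of 11 genes of the regeneration phase, 9 had a row, and TKL1 led them. TKL1 (AT3G60750), a transketolase that moves carbon units between sugar phosphates, had 8948 counts for replicate 1 and 5832 for replicate 2, or 3591 and 2346 CPM. It made 51.9% of the summed CPM of the regeneration genes in replicate 1 and 44.7% in replicate 2. Its copy TKL2 (AT2G45290), with 85.0% identity in the coding sequence, had 55 and 78 counts. Per kb, TKL1 exceeded TKL2 169-fold in replicate 1 and 77.9-fold in replicate 2. The rows used are for isoform 1, and the annotation gives 2 transcripts for each gene, so this ratio is between models and not whole genes. PRK (AT1G32060), the phosphoribulokinase that makes the acceptor of CO2, had 2684 counts for replicate 1 and 1658 for replicate 2, or 1077 and 667 CPM. SBPASE (AT3G55800), the sedoheptulose bisphosphatase, had 2021 and 2710 counts, or 811 and 1090.3 CPM, and was higher in replicate 2, against the direction of TKL1 and PRK. HCEF1 (AT3G54050), the chloroplast fructose bisphosphatase, had 2435 and 1996 counts, or 977 and 803 CPM. The ratio of TKL1 to PRK per kb was 1.97 in replicate 1 and 2.08 in replicate 2. That of PRK to SBPASE was 1.23 in replicate 1 and 0.566 in replicate 2. How often unrelated genes match as closely in 2 libraries was not tested.

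The other regeneration genes were lower per kb than TKL1, PRK, SBPASE and HCEF1. EMB3119 (AT3G04790), annotated as a ribose 5-phosphate isomerase, had 752 counts for replicate 1 and 219 for replicate 2, or 302 and 88.1 CPM. Among members at 5 CPM or more this was the widest ratio between the libraries, 3.43-fold. FBA3 (AT2G01140), a plastid aldolase, had 338 and 545 counts, or 136 and 219 CPM. FBA2, another plastid aldolase, was listed at 0 in both libraries, and TIM, the plastid triose phosphate isomerase, had 3 counts in replicate 1 and 0 in replicate 2. The rows of FBA2 and TIM are for isoform 1, and the annotation gives 2 transcripts for FBA2 and 3 for TIM, so other transcripts of these genes are outside the rows and the level of the whole gene is not known from them. FBA1 and RPE, the ribulose phosphate epimerase, had no row.

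The CP12 genes differed widely among themselves. CP12 proteins are small and flexible, and in the dark they bind the chloroplast glyceraldehyde 3-phosphate dehydrogenase and phosphoribulokinase into an inactive complex. CP12-1 (AT2G47400) had 6534 counts for replicate 1 and 12559 for replicate 2, or 2622 and 5053 CPM, which placed it at rank 31 of all models in replicate 1 and rank 10 in replicate 2. CP12-2 (AT3G62410) had 477 and 596 counts, or 191 and 239.8 CPM. CP12-3 (AT1G76560) had 20 counts in replicate 1, or 8.03 CPM, and was at 0 in replicate 2, so its level in replicate 1 was 4.21 times the limit that a listed 0 allows in replicate 2. The counting error of the 20 counts is not part of that ratio. Per kb of transcript, CP12-1 exceeded CP12-2 9.56-fold in replicate 1 and 14.7-fold in replicate 2. The same measure put CP12-1 2.07-fold above GAPA in replicate 1 and 6.32-fold in replicate 2, and above PRK 5.04-fold in replicate 1 and 15.7-fold in replicate 2. The 3 genes are easily told apart by sequence, unlike the Rubisco small subunits, and their last 90 coding bases are shown for that reason. Capitals mark cysteine codons in the reading frame, and each stretch ends with the stop codon. The stretches lie at chr2:19447174-19447263, chr3:23091312-23091401 and chr1:28728600-28728689 of TAIR10.1, all on the plus strand.
CP12-1: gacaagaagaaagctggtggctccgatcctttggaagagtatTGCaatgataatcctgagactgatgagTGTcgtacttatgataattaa
CP12-2: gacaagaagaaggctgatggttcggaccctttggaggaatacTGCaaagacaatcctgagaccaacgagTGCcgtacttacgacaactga
CP12-3: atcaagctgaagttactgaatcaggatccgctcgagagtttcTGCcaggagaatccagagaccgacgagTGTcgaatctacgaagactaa
Each stretch holds 2 cysteine codons at the same places. The carboxy-terminal cysteines of CP12 are known to form the disulfide that is needed to bind the dehydrogenase. Over the coding sequence CP12-2 was 74.5% and CP12-3 59.5% identical to CP12-1, and none of the 3 transcripts shared a window of 50 bases with another locus.

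Most genes of the regulators and partners of these enzymes were also expressed. Of 14 genes of thioredoxin-linked regulation, export and carbon supply, 11 were listed, 10 reached 5 CPM and 9 reached 100 CPM. Carbonic anhydrase gene CA1 led them with 1229 CPM in replicate 1 and 988 in replicate 2. TRXF1 and TRXM2, genes of thioredoxins of the f and m types, came next, and f-type thioredoxins are known to activate the Calvin cycle phosphatases in the light. TRXF1 stood at 189 CPM in replicate 1 and at 366 in replicate 2, and TRXM2 at 228 and 308 CPM.

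Of 15 photorespiration genes only 6 had a row, 4 of them for mitochondrial proteins. In the mitochondrion, the glycine decarboxylase complex and serine hydroxymethyltransferase turn glycine into serine. SHM1 (AT4G37930), the serine hydroxymethyltransferase, had 5136 counts for replicate 1 and 11835 for replicate 2, or 2061 and 4762 CPM. It ranked 49 among all models in replicate 1 and 14 in replicate 2. GDCH (AT2G35370), an H protein that carries the reaction intermediate between the subunits of the decarboxylase, had 3586 and 3150 counts, or 1439 and 1267 CPM. AT1G32470, whose coding sequence is 88.2% identical to that of GDCH, had 2283 and 1509 counts, or 916 and 607 CPM. GLDP2 (AT2G26080), 1 of the 2 genes for the P protein that releases CO2 from glycine, was far lower, with 165 counts for replicate 1 and 124 for replicate 2, or 66.2 and 49.9 CPM. Per kb, GDCH exceeded GLDP2 91.3-fold in replicate 1 and 107-fold in replicate 2. The other P protein gene, GLDP1, had no row, nor had AT1G11860, which is annotated as the T protein, so the balance of the subunits cannot be read from these rows. The ratio of SHM1 to GDCH per kb was 0.680 in replicate 1 and 1.78 in replicate 2, and thus which of these genes stood higher differed between the libraries.

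The peroxisomal steps, in which glycolate is oxidised and aminated and hydroxypyruvate is reduced, were covered by 2 of 6 genes. HPR (AT1G68010), the hydroxypyruvate reductase, had 725 counts for replicate 1 and 835 for replicate 2, or 291 and 336 CPM. CAT2, a catalase that removes the hydrogen peroxide made by glycolate oxidase, was listed at 0 in both libraries. That row is for isoform 2, and the annotation gives 3 transcripts, so the same limit holds as for FBA2. The glycolate oxidase genes GOX1 and GOX2 and the aminotransferase genes GGT1 and AGT1 had no row. None of the 3 chloroplast genes had one either: PGLP1 (phosphoglycolate phosphatase), AT1G80380 and GLU1 (ferredoxin-dependent glutamate synthase). Of 17 further genes of photorespiration and its transport steps, 10 were listed, 8 reached 5 CPM and 2 reached 100 CPM. Those at 100 CPM were LrgB (AT1G32080), a plastid glycolate and glycerate transporter gene, at 136 ± 8.85 CPM, and PMDH1, a peroxisomal malate dehydrogenase gene, at 110.5 ± 6.62 CPM (SD, n = 2). LPD2, a lipoamide dehydrogenase gene, followed at 88.4 ± 8.94 CPM. Among isozymes of members, CAT1, another catalase gene, had 52.6 CPM in replicate 1 and 103 in replicate 2, while the row of CAT3 had 0 and 2 counts and that of GOX3 was at 0 in both. These rows are isoform 2 of 6 annotated transcripts for CAT3 and of 4 for GOX3, so they too leave the level of the gene unknown. PGLP2, a second phosphoglycolate phosphatase gene, had 32.5 and 11.3 CPM. AT2G35120, a further H protein gene, had 32.5 and 20.9 CPM, and per kb GDCH exceeded it 41.1-fold in replicate 1 and 56.3-fold in replicate 2.

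Whether a member had a row went with its number of annotated transcripts. Of the 15 members with 1 transcript in the RefSeq annotation, 14 were listed, RBCS2B being the exception. Of the 23 members with several, 8 were listed. Among all protein-coding loci of the annotation, 65.8% of those with 1 transcript and 53.1% of those with several were listed. How the table was restricted to its rows is not given in the sources used here.

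Levels were compared between members per kb of the listed transcript model. TKL1, TKL2, HCEF1, HPR and RBCS1B have several annotated transcripts, so for them the level is that of 1 model and not of the whole gene. CP12-1 was highest at 4203 ± 1883 CPM per kb (SD, n = 2), and its lowest library, at 2872, lay above the highest library of SHM1, at 2394. SHM1 followed at 1715 ± 960.0 CPM per kb and GDCH at 1434 ± 129 CPM per kb. GAPB stood at 1199 ± 245, GAPA at 1131 ± 361, TKL1 at 929 ± 275 and AT1G32470 at 919 ± 264 CPM per kb. From SHM1 to AT1G32470 each gene overlapped the next in the range of its 2 libraries, so the order among these neighbours was not separated by the spread. A gap followed, since the lower library of AT1G32470 (732) lay above the higher library of HCEF1 (603). From HCEF1, at 549 ± 76.0 CPM per kb, each gene again overlapped the next through SBPASE, PRK, CP12-2 (338 ± 53.7), PGK1 (201 ± 144) and EMB3119 to HPR, at 182 ± 18.5 CPM per kb. CP12-2 and PGK1 overlapped only narrowly, 301 being the lower library of CP12-2 and 302 the higher of PGK1. FBA3, at 97.1 ± 32.4 CPM per kb, lay below HPR in both libraries. It was not apart from all genes above it, as its higher library (120) exceeded the lower libraries of PGK1 (99.1) and EMB3119 (88.8). GLDP2, RBCS1B and TKL2 stood between 14.6 ± 2.91 and 8.03 ± 1.98 CPM per kb. With coding length in place of transcript length, CP12-1 was still first and TKL2 last, while GDCH moved ahead of SHM1 and RBCS1B ahead of GLDP2.

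**Figure D2:**
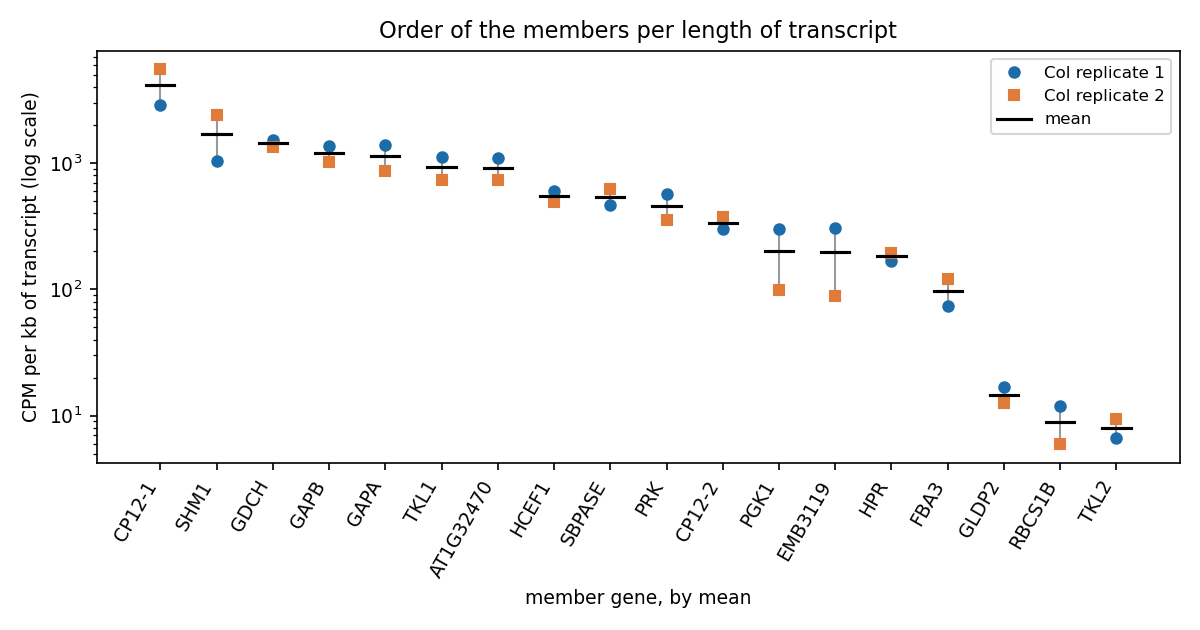
Level per kb of transcript on a log axis for the 18 members with a mean of at least 5 CPM, ordered by their mean (black bar), with circles for Col replicate 1 and squares for Col replicate 2. CP12-1 stands apart at 2872 and 5534 CPM per kb, 6 genes from SHM1 to AT1G32470 overlap as neighbours, and GLDP2, RBCS1B and TKL2 lie below 20 CPM per kb.

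Several members have isozymes that work outside these pathways, in glycolysis or other one-carbon steps, and 11 of 17 such isozyme genes had a row. Per kb, the photosynthetic form was the more abundant within each library for the serine hydroxymethyltransferases, the fructose bisphosphatases and the glyceraldehyde 3-phosphate dehydrogenases that had a row. Per kb, SHM1 exceeded SHM4, a serine hydroxymethyltransferase outside the mitochondrion, 14.7-fold in replicate 1 and 13.8-fold in replicate 2. HCEF1, read through isoform 1 of 2 annotated transcripts, exceeded FBP, the cytosolic fructose bisphosphatase, 8.02-fold in replicate 1 and 8.59-fold in replicate 2. GAPB exceeded GAPC1, the glycolytic dehydrogenase, 1.54-fold in replicate 1 and 1.63-fold in replicate 2, and GAPA exceeded it 1.55-fold and 1.39-fold. These ratios were close between the libraries, although SHM1 and SHM4 were both higher in replicate 2. The isozyme genes GAPC2, SHM2 and SHM3 had no row, nor had GAPA2. The dehydrogenases and the hydroxymethyltransferases are therefore ranked only by the genes with a row, and not as a whole. FBA8, a cytosolic aldolase, exceeded the plastid FBA3 3.66-fold in replicate 1 and 2.45-fold in replicate 2. The cytosolic isomerase gene TPI reached 417 CPM in replicate 1 and 889.98 in replicate 2, where the row of the plastid TIM had 3 and 0 counts. With TIM and FBA2 seen through 1 isoform each and FBA1 without a row, the plastid and cytosolic forms of these enzymes cannot be ranked as a whole. The rows of the other listed isozymes were low: FBA7, SHM6, SHM7, GAPCP1 and GAPCP2 had means between 11.5 and 77.0 CPM. The row of FBA7 is for 1 of 4 annotated transcripts and that of SHM6 for 1 of 2, so neither gives the level of the whole gene. The row of SHM5, 1 of 2 annotated transcripts, was at 0 in both.

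**Figure D3:**
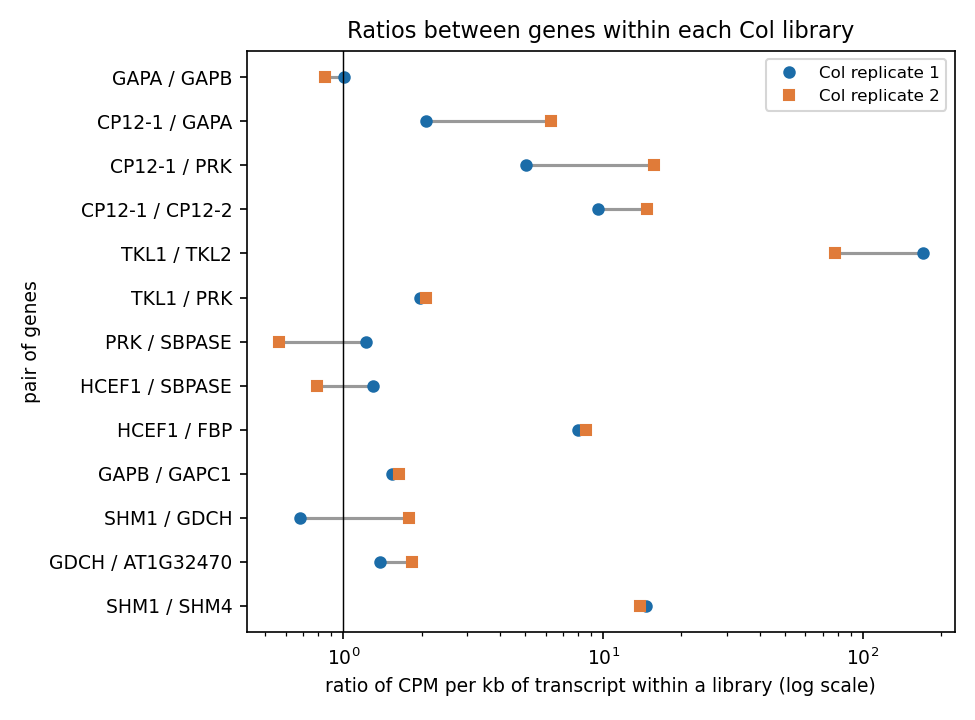
Ratio of CPM per kb of transcript between the genes of 13 pairs within a library, on a log axis, with circles for Col replicate 1, squares for Col replicate 2 and a line at equal levels. The ratios of SHM1 to SHM4 (14.7 and 13.8) and of TKL1 to PRK (1.97 and 2.08) nearly coincide in the libraries, while that of CP12-1 to PRK (5.04 and 15.7) does not.

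The libraries were compared gene by gene with an exact binomial test, two-sided, of how the counts split between them, with Benjamini-Hochberg adjustment over the 10701 models at 5 CPM or more and a threshold of 0.05. The test sets 2 libraries of the same genotype against counting noise and says nothing of conditions. It called 17 of the 18 members tested, where it called 54.5% of all models tested. Of the 18 members tested, 11 were called higher in replicate 1, beside 27.4% of all models tested. The other 6 called were higher in replicate 2, beside 27.1% of all models tested. Among all 5835 models called, 2934 were higher in replicate 1 and 2901 in replicate 2. The share called rises with depth, to 80.1% of models at 100 CPM or more, where 15 of 15 members were called, and to 98.1% at 1000 CPM or more, where 6 of 6 were. Of the 15, 9 were called higher in replicate 1, beside 41.3% of all models at 100 CPM or more. The other 6 were called higher in replicate 2, beside 38.8% of those models. With at least a 2-fold ratio, 3 of the 18 members tested were called, beside 24.7% of all models tested. All 3 were at 100 CPM or more, where 20.4% of models were called with such a ratio, and 1 of them at 1000 CPM or more, where 21.3% were. They were EMB3119 (log2 ratio of replicate 1 over replicate 2 of 1.77) and PGK1 (1.61), both higher in replicate 1, and SHM1 (−1.21), higher in replicate 2.

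The members did not move one way. Higher in replicate 1 were all 3 tested genes of the reduction phase, TKL1 (0.61), PRK (0.69), HCEF1 (0.28) and EMB3119 of the regeneration phase, and AT1G32470 (0.59), GDCH (0.18) and GLDP2 (0.40) of the glycine decarboxylase group, with RBCS1B (0.97). Higher in replicate 2 were CP12-1 (−0.95) and CP12-2 (−0.32), both tested genes of that family, and SBPASE (−0.43), FBA3 (−0.69), HPR (−0.21) and SHM1. TKL2 (−0.50) was not called, with an adjusted p of 0.0918 by the exact binomial test. For GLDP2 the adjusted p was 0.0373 by the same test, and without scaling beyond the total count it was 0.117, while that of TKL2 was then 0.0418. The median log2 ratio of the 18 members was 0.34, beside −0.0034 over all models tested. Their SD was 0.82, beside 0.91 over all models tested. For the 15 members at 100 CPM or more the median was 0.28 and the SD 0.85, beside 0.03 and 0.82 over all models at that depth. For the 6 at 1000 CPM or more the median was 0.30 and the SD 0.82, beside 0.20 and 0.87.

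Which library had the larger sum depended on CP12-1 and SHM1. Both are abundant and were higher in replicate 2, so leaving them out could only shift the balance towards replicate 1. Without them the other 20 came to 15375 CPM in replicate 1 and 11374 in replicate 2, 1.35 times as much in replicate 1. With them the sum was 0.947 times that of replicate 2. Of the 10 tested genes of regulation, export and carbon supply, 4 were called higher in replicate 1 and 5 in replicate 2. Of all models tested the shares were 27.4% and 27.1%. Of those at 100 CPM or more, where 9 of the 10 genes stood, they were 41.3% and 38.8%. Of 8 tested further photorespiration genes, 3 were called higher in replicate 1 and 2 in replicate 2, beside 27.4% and 27.1% of all models tested. Of 27 tested antenna and photosystem genes, 18 were called higher in replicate 1 and 8 in replicate 2, with a median log2 ratio of 0.38. Of these genes, 26 were at 100 CPM or more, where the median over all models was 0.03, and 22 at 1000 CPM or more, where it was 0.20. Of all 108 models at 1000 CPM or more, these 22 included, 60 were called higher in replicate 1 and 46 in replicate 2.

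**Figure D4:**
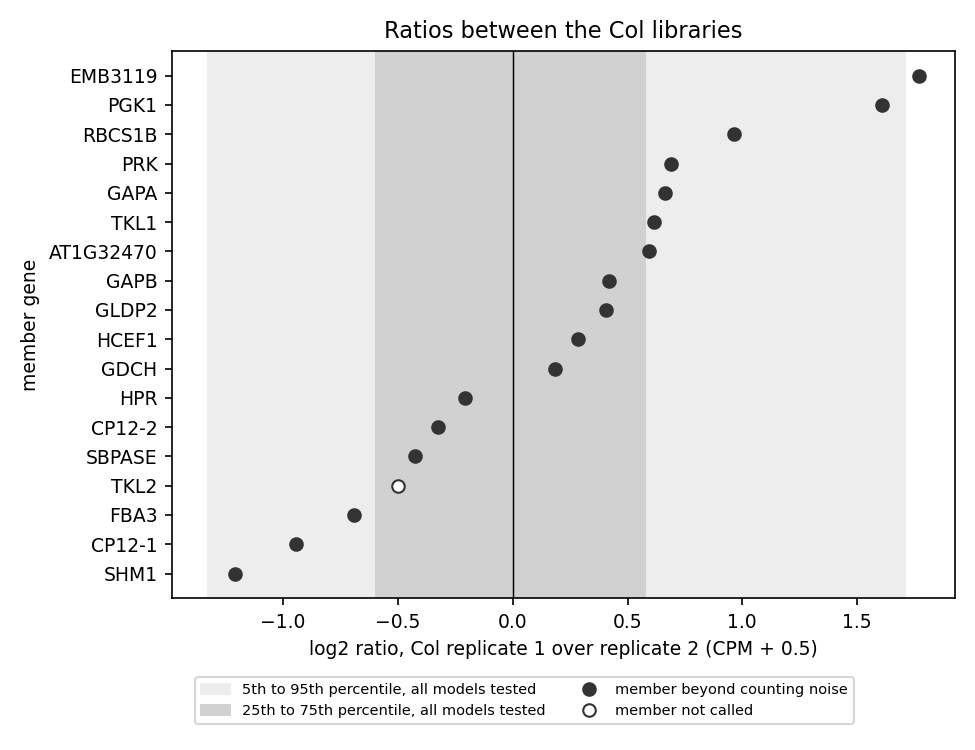
Log2 ratio of Col replicate 1 over replicate 2 (CPM plus 0.5) for the 18 members tested, with filled points beyond counting noise, an open point for TKL2, and grey bands for the central ranges of all 10701 models tested. EMB3119 (1.77) is the only member outside the band from the 5th to the 95th percentile, which runs from −1.33 to 1.71.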

How the data were processed

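Illumina libraries were made from total shoot RNA isolated with TRIzol, per the labels' protocols. The authors deposited unnormalised counts, 1 row a gene model, per the file headers. Per the submitters' processing notes the build was TAIR 10. Neither aligner, counter, strand setting nor filters are given in the sources used here. The column names also hold a number that nothing explains; the counts sum to 55.5% of it for replicate 1 and 53.6% for replicate 2. Another 6 count columns match no sample title and were not used.

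The members and gene lists were chosen with earlier results of these data known. Scaling factors were trimmed means of M values, from edgeR 4.0.16 in R 4.3.3, over all models. Where a locus had several models, the most abundant was used. The exact binomial test (scipy 1.17.1) doubled the smaller tail, and log2 ratios were taken after adding 0.5 CPM. The edgeR quasi-likelihood test planned for genotype contrasts was not run. The spread between the libraries measures these samples only and may be technical. By rule, every member was accounted for, with full values for those at 100 CPM or more and for those called with at least a 2-fold ratio; of the other lists, at most the 3 most abundant genes and isozymes of members are named. Lists of antenna, chlorophyll synthesis, root and epidermis genes were also summed. Transcript models, lengths, gene names and sequences came from RefSeq's annotation of TAIR10.1, in which all 22 listed member models were found. Coding sequences were aligned globally with Biopython 1.88. Windows of 50 bases were compared on the sense strand.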

Additional observations from a re-analysis of the deposited data

How the results depend on the processing

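The count of members beyond counting noise, their median ratio, their sum and the number at 100 CPM or more kept their direction and stayed close to their values under each alternative run for them. These were RLE factors, no scaling, no filter, a mean of at least 20 CPM and models summed per locus, and for the median also pseudocounts of 0.1 and 5 CPM. The number of members beyond counting noise ranged from 16 of 17 tested (at 20 CPM or more) to 18 of 20 (no filter), and their median log2 ratio from 0.25 (no scaling) to 0.41 (no filter). Without scaling, GLDP2 lost its call, TKL2 gained one, and the split was 10 higher in replicate 1 and 7 in replicate 2. Leaving out each replicate in turn, 14 to 15 members reached 100 CPM and the members summed to 20059 to 21188 CPM. With coding in place of transcript length, 15 instead of 14 members reached 100 CPM per kb. No paired analysis was possible because no count column could be assigned to cae2-1, CA1-1 or their combination, which leaves a single genotype with nothing to pair it with. DESeq2 was not run, since no contrast between groups was made. With 2 libraries of 1 genotype, differences between genes rest on n = 2, and at the low end a listed 0 cannot be told from 1 count.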
